A study of Homo sapiens with 12 samples.

Results

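The genes described here are the WNT ligands, their receptors and co-receptors, the intracellular parts of the pathway and its feedback genes, 48 listed genes among the 58662 gene identifiers of the count tables that could be matched to a symbol. The list was drawn up because WNT7B had been seen to rise in all 5 knockdowns of these cells, and it was asked whether receptors and canonical targets followed. WNT7B is therefore given as a description, without a test, and every count of genes below is over the other 47. By role, the 48 genes are 12 ligands, 9 frizzled receptors, 5 co-receptors, 4 genes of receptor turnover, 7 cytoplasmic components, 6 nuclear factors and 5 feedback genes.

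RNA-seq was performed in HEK293T cells, a transformed line derived from human embryonic kidney, which were cultured under normal condition and transfected with siRNA. The 6 groups, each of 2 libraries, received a control siRNA (siCTL) or an siRNA against CARM1 (siCARM1), CHD4 (siCHD4), HDAC2 (siHDAC2), GATAD2A (siGATAD2A) or KDM1A (siKDM1A). CARM1 is an arginine methyltransferase, and the other 4 targets are subunits of the nucleosome remodeling and deacetylase (NuRD) complex, namely its remodeling ATPase, a deacetylase, a zinc finger subunit and an associated histone demethylase. The methods name a single siRNA sequence each for CHD4, HDAC2, GATAD2A and KDM1A and do not say which of the siRNAs against CARM1 was sequenced, so the loss of a target and the action of its siRNA sequence cannot be told apart. The labels do not say whether the libraries of a group came from separate cultures, so the tests measure only the spread between these libraries.

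WNT proteins are secreted lipid-modified ligands that bind frizzled receptors together with the co-receptors LRP5 and LRP6. In the canonical branch this inhibits the complex of AXIN, APC and GSK3B that otherwise marks β-catenin (CTNNB1) for degradation, and β-catenin then acts with TCF/LEF factors on target genes. Several of those targets, among them AXIN2, NKD1, DKK1, RNF43 and ZNRF3, restrain the pathway in turn, whereas other branches signal through ROR and RYK receptors. HEK293 cells are widely used for reporter assays of this pathway, since they hold its components and respond to added ligand.

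The libraries held 19308315 to 28648657 counts on genes, of which 0.332% to 0.356% fell on the 48 genes. Each targeted gene was lower in its own knockdown, with both libraries below both siCTL libraries, but by unequal amounts. The log2 fold change was -2.37 for CARM1, -2.35 for HDAC2, -1.74 for GATAD2A and -2.59 for KDM1A, while for CHD4 it was only -0.54. Of 6 markers of the epithelial and neuronal character of HEK293 cells, KRT8, KRT18, CDH2 and NEFL were expressed, and PAX2 and NEFM stayed at or below 0.331 and 0.196 FPKM. The markers of other cell types PTPRC, LYZ, DCN and ESR1 were at or below 0.101 FPKM, although COL1A1, often taken as a fibroblast gene, lay between 8.23 and 13.6 FPKM. Over the whole lists, 1 of 4 leukocyte, 1 of 2 endothelial, 2 of 4 fibroblast and 1 of 4 breast luminal markers passed 0.5 FPKM, with summed levels of 0.578 to 2.87, 0.748 to 1.51, 9.28 to 15.2 and 3.29 to 5.22 FPKM, and their part in the results was not tested. These are bulk libraries, in which fewer cells expressing a gene and less RNA per cell cannot be told apart.

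Promoters of 2 of these genes are shown because they carry the letters bound by TCF/LEF factors and because their genes, both textbook targets of β-catenin, moved in opposite directions in the knockdowns. The 250 bases before the RefSeq start site are printed from 5′ to 3′ (GRCh38.p14, plus strand, SP5 at chr2:170715087-170715336 and DKK1 at chr10:52314031-52314280), with the matches in capitals.
SP5: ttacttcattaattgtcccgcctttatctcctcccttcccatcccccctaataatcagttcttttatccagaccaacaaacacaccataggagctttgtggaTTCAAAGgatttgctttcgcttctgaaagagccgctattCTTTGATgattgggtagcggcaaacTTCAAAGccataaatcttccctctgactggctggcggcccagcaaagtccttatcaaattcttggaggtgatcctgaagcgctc
DKK1: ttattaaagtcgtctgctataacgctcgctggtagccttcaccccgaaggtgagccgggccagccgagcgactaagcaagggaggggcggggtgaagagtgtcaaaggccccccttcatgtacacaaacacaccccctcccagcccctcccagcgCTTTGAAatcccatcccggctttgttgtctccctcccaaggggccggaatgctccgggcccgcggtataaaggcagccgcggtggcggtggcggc

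The letters searched were CTTTGAA and CTTTGAT on both strands, over the window from 250 bases before to 50 bases after the start. SP5 held 3 matches, whose first letters lay at -148, -109 and -84 from the start, and DKK1 held 1 at -95. Among the 35 listed genes with an entry in the RefSeq table, no other promoter held a match, which made 2 of 35 (5.71%) beside 1906 of all 27305 promoters (6.98%). WNT7B and AXIN2 have no entry there. The promoters of the listed genes had a median of 69.7% G+C and 31 CpG, against 58.3% and 14 over all promoters.

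WNT7B, a ligand of both the canonical and other branches, lies on chromosome 22 from 46316246 to 46373042 (GRCh37, minus strand). Its level, in CPM (the count scaled by the total of the library and by edgeR's TMM factor), was 1.2 and 1.33 in the siCTL libraries, 7.88 and 7.87 in siCARM1, 20.8 and 19.7 in siCHD4, 3.45 and 3.84 in siHDAC2, 5.69 and 7.43 in siGATAD2A and 8.27 and 7.34 in siKDM1A. All 10 knockdown libraries lay above both siCTL libraries, siCHD4 by the most and siHDAC2 by the least. The fitted change was 15.8-fold in siCHD4, 6.16-fold in siCARM1, 6.09-fold in siKDM1A, 5.12-fold in siGATAD2A and 2.87-fold in siHDAC2, values that chose the list and are given with no test. The siCTL libraries rest on 22 and 29 counts.

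Compared per length, WNT7B was a minor ligand of the control cells. FPKM, the count scaled by exonic length and by the total count of the library, was highest for WNT11 (5.94 ± 0.0283, SD, n = 2) and WNT3 (5.86 ± 0.304), which did not differ beyond their spread, followed by WNT5B at 5.08 ± 0.0849 and WNT5A at 4.86 ± 0.297, which did not either. WNT10B (4.23 ± 0.297) and WNT9A (3.91 ± 0.226) came next. WNT6 (0.383 ± 0.029), WNT3A (0.265 ± 0.0332) and WNT7B (0.235 ± 0.0163) lay more than 10 times below WNT9A, and WNT3A and WNT7B did not differ beyond their spread. WNT7B made up 0.761% of the summed FPKM of the 12 ligands in siCTL, and between 2.45% in siHDAC2 and 9.55% in siCHD4 in the knockdowns. In siCHD4, at 3.66 ± 0.141, it stood beside WNT9A (3.77 ± 0.0919) and WNT3 (3.81 ± 0.148). The summed level of the other 11 ligands went from 30.7 ± 0.555 FPKM in siCTL to 34.7 ± 1.6 in siCHD4, and was 26.8 ± 1.07 in siHDAC2.

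Knockdowns were then set against siCTL with the quasi-likelihood test of edgeR, fitted to 12830 coding genes whose mean passed 0.5 FPKM in some group. Genes are called higher or lower where p, adjusted over all of these by Benjamini and Hochberg's method, is no more than 0.05 and the fold is 1.2 or larger. With 2 libraries against 2, an exact two-sided permutation test of a single gene cannot go below p = 0.333, so all tests below come from this fit, which pools the spread over the 6 groups. The 5 comparisons share the siCTL libraries and are not independent of each other. Of the 47 genes, 44 were tested, and WNT2B, WNT4 and WNT7A fell under the filter. WNT3A and WNT6, like WNT7B, were under it in siCTL and passed only through knockdown groups in which they were high, so that their changes against siCTL in this fit are a description. Their tests are given from a fit to all coding genes with at least 1 count, a filter that does not use the level in any group.

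The genes moved in both directions in every knockdown. In siCHD4, 15 of the 44 genes were higher and 12 lower, where 24% and 24.9% of all genes tested were called. In siGATAD2A, 10 were higher and 10 lower, beside 15.7% and 18.2% of all genes. In siKDM1A the counts were 7 and 7 (14.2% and 11.5% of all genes), in siCARM1 they were 5 and 7 (14.9% and 14.5%), and in siHDAC2 they were 5 and 6 (10.6% and 9%). Without WNT3A and WNT6 the genes higher were 13 of 42 in siCHD4, 8 in siGATAD2A, 5 in siKDM1A, 5 in siCARM1 and 4 in siHDAC2. As shares of the 44, these counts ran from 11.4% higher in siCARM1 and siHDAC2 to 34.1% higher in siCHD4, and from 13.6% lower in siHDAC2 to 27.3% lower in siCHD4. The median log2 fold change of the 44 genes lay between -0.08 in siHDAC2 and 0.02 in siCHD4, while that of all genes lay between -0.00 and 0.01.

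**Figure D1:**
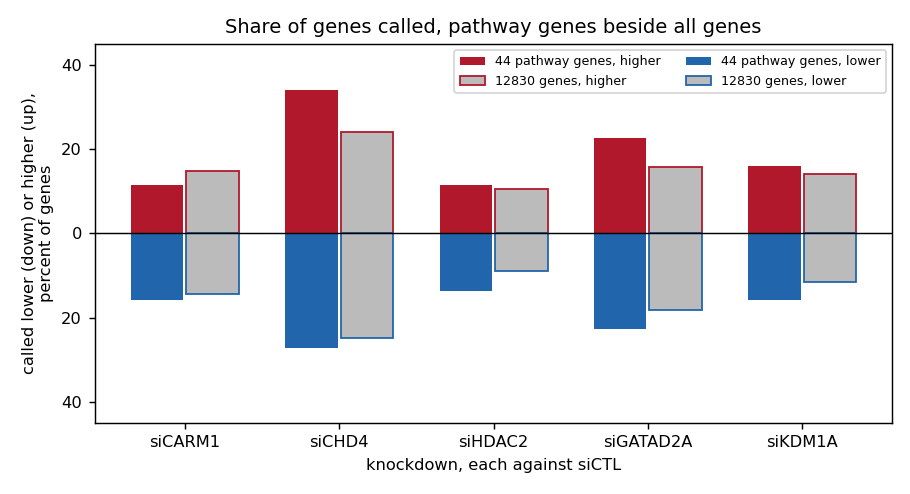
Percent of genes called higher (above the line) and lower (below it) in each knockdown against siCTL, for the 44 tested pathway genes other than WNT7B (filled bars) and for all 12830 genes tested (grey bars). The pathway genes were called in both directions in every knockdown, with the tallest bars, 34.1% higher and 27.3% lower, in siCHD4.

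Over the 5 comparisons, 38 of the 44 genes (86.4%) were called at least once, beside 73% of all genes. DKK1 was the single gene called higher in every knockdown (2.27%, beside 2.28% of all genes), and none was lower in every knockdown. Higher in at least 3 were 6 genes (13.6%, beside 10.8% of all genes) and lower in at least 3 were 5 (11.4%, beside 9.59%), shares near the background. The 6 genes higher in at least 3 include WNT3A and WNT6, which passed the filter only through knockdown groups in which they were high. There were 8 genes (18.2%, beside 9.47% of all genes) that were higher in some knockdowns and lower in others. For WNT11 and ZNRF3 among them, the lower call was not kept in every alternative setting, as given below. The 6 genes never called were FZD5, RYK, DVL2, DVL3, APC and CTNNB1. Of 220 pairs of a gene and a knockdown, 15 were called with a change of at least 2-fold, and these came from 8 genes, WNT3A and WNT6 among them. The matching count over all genes was not made, so these numbers are not set against a background.

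**Figure D2:**
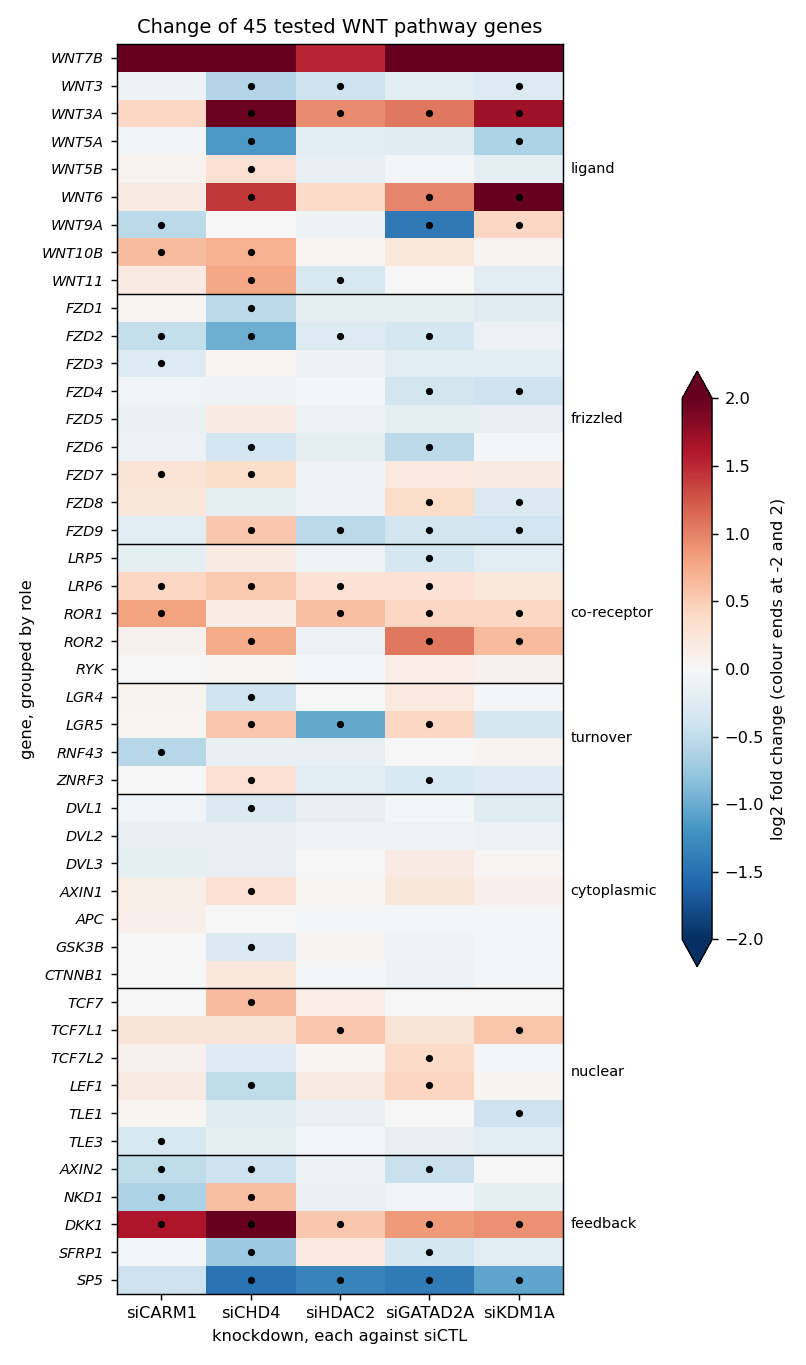
Log2 fold change (colour, red higher and blue lower, ending at -2 and 2) of the 45 tested genes, grouped by role in rows, in each knockdown against siCTL in columns. Dots mark genes called by the test and WNT7B carries none because it chose the list. DKK1 is red in all 5 columns and SP5 is blue in all 5, although its siCARM1 value was not called, and the cytoplasmic rows are pale.

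The other ligands diverged. In siCHD4, 5 of the 8 tested were higher and 2 lower, beside 24% and 24.9% of all genes. In siHDAC2, 1 was higher (12.5%, near the 10.6% of all genes) and 2 lower (25%, beside 9%). The 5 include WNT3A and WNT6, and the 1 is WNT3A. These 2 genes passed the filter only through knockdown groups in which they were high, which favours such calls. Single ligands went in different directions within a knockdown. WNT3A, a canonical ligand (chromosome 1 from 228194699 to 228248972, GRCh37), was at 0.766 and 0.92 CPM in siCTL, 3 and 3.62 in siCHD4 and 2.92 and 2.6 in siKDM1A. It was at 2.03 and 1.5 in siGATAD2A, 1.91 and 1.42 in siHDAC2 and 1.3 and 0.954 in siCARM1, so that all 10 knockdown libraries lay above both siCTL libraries. Its log2 fold change was 1.96 (SE 0.289) in siCHD4, 1.69 (SE 0.299) in siKDM1A, 1.06 in siGATAD2A, 0.94 in siHDAC2 and 0.42 in siCARM1. In the edgeR fit to all coding genes with at least 1 count, the adjusted p was 2.3e-10 in siCHD4, 3.34e-07 in siKDM1A, 0.00442 in siGATAD2A and 0.0239 in siHDAC2. The counts were small, 14 and 20 in siCTL. With the FPKM filter, the siHDAC2 call was lost with DESeq2 (adjusted p = 0.0591) and without siCTL replicate 1 (0.133), siCTL replicate 2 (0.075) or siHDAC2 replicate 1 (0.17), and the siGATAD2A call without siCTL replicate 1 (0.0526) or siGATAD2A replicate 1 (0.0993).

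WNT6, also a canonical ligand, was highest in siKDM1A, at 4.34 and 3.52 CPM against 0.656 and 0.736 in siCTL, and not in siCHD4, at 2.03 and 1.7. The log2 fold changes were 2.48 (SE 0.337) and 1.41 (SE 0.386), with adjusted p of 3.78e-14 and 0.000212 in the edgeR fit to all coding genes with at least 1 count. The difference of 1.07 on the log2 scale between siKDM1A and siCHD4 is given as a description. The 2 siHDAC2 libraries were at 0.361 and 1.34, on both sides of siCTL. In siGATAD2A, at 1.42 and 1.33, WNT6 had an adjusted p of 0.0251 in that fit. With the FPKM filter it was called at 0.047, and that call was lost with DESeq2 (0.0809), with filterByExpr on every biotype (0.0529) and without either siCTL (0.152 and 0.123), siCHD4 (0.0537 and 0.0534) or siGATAD2A library (0.142 and 0.0894).

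WNT9A lies next to WNT3A on chromosome 1, from 228106357 to 228135633 on the minus strand, and did not move with it. Its level was 15.9 and 17.3 CPM in siCTL, 16.2 and 16.7 in siCHD4, 14.7 and 16.1 in siHDAC2, 11.1 and 11.8 in siCARM1, 6.14 and 6.15 in siGATAD2A and 23.4 and 20.7 in siKDM1A. It fell in siGATAD2A (log2 fold change -1.43, SE 0.116, adjusted p = 8.12e-12) and in siCARM1 (-0.54, SE 0.105, adjusted p = 9.66e-05) and rose in siKDM1A (0.41, SE 0.097, adjusted p = 0.000974). Between siKDM1A and siGATAD2A the difference was 3.59-fold (adjusted p = 1.2e-14), so this ligand moved in opposite directions with knockdown of different subunits of the same complex.

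WNT5A, the ligand best known for the branches through ROR receptors, fell. It was at 38.3 and 35.3 CPM in siCTL, 16.7 and 16.5 in siCHD4 and 23.2 and 24.4 in siKDM1A, with log2 fold changes of -1.15 (SE 0.078, adjusted p = 5.8e-14) and -0.63 (SE 0.074, adjusted p = 4.64e-08). In siHDAC2 (-0.23) and siGATAD2A (-0.24) all libraries also lay below siCTL, at a fold under 1.2, and the siCARM1 libraries, at 35.7 and 35.1, overlapped siCTL. WNT3 was lower in siCHD4 (-0.58), siHDAC2 (-0.41) and siKDM1A (-0.28), the last of which was lost without siCTL replicate 1 (-0.23, adjusted p = 0.0779) or siKDM1A replicate 2 (-0.25, 0.0555).

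WNT11, the ligand with the highest mean FPKM over the 12 libraries, was at 14.9 CPM in both siCTL libraries, 25.8 and 25.2 in siCHD4 and 11.4 and 12.3 in siHDAC2. It rose in siCHD4 (log2 fold change 0.77, SE 0.091, adjusted p = 1.04e-08). The fall in siHDAC2 (-0.32, adjusted p = 0.0118) was not kept with counts taken without regard to strand (-0.23), without siCTL replicate 2 (adjusted p = 0.057) or without siHDAC2 replicate 1 (0.0841). Of the 2 remaining tested ligands, WNT10B was higher in siCARM1 (0.63) and siCHD4 (0.70), and WNT5B was higher in siCHD4 (0.30). Among those under the filter, WNT7A had 0 counts in all libraries of siCTL, siCARM1 and siGATAD2A, which allows up to 3 counts in each, and 15 and 7 in siCHD4. WNT4 and WNT2B summed to 6 and 96 counts over the siCTL libraries, to 35 and 106 over those of siKDM1A and to 19 and 86 over those of siCHD4.

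**Figure D3:**
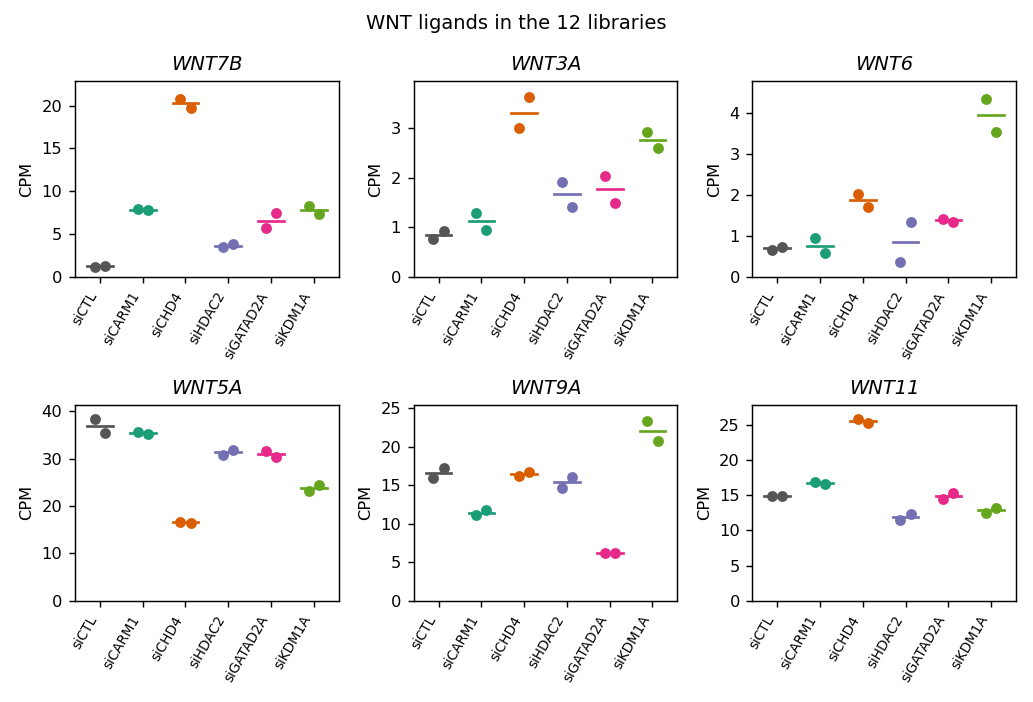
TMM-scaled CPM (linear axis from 0) of 6 WNT ligands in the 12 libraries, with a point for each library and a line at the mean of each group of 2. WNT7B and WNT3A are highest in siCHD4 and WNT6 in siKDM1A, WNT5A is lowest in siCHD4, and WNT9A is lowest in siGATAD2A at 6.14 and 6.15 CPM.

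The 9 listed frizzled receptors were expressed throughout and changed by less than the ligands. FZD10 is not among them and is described with the further genes below. Per length, FZD2 was the highest in siCTL (24.9 ± 0.354 FPKM), ahead of FZD6 (18.9 ± 0.424) and FZD8 (15.6 ± 0.354), and FZD1 was the lowest (5.1 ± 0.0283). Of 45 pairs of a receptor and a knockdown, 14 were called lower (31.1%, beside 15.6% of all pairs of a tested gene and a knockdown), by log2 values of -0.98 to -0.27, and 4 higher (8.89%, beside 15.9%), by 0.27 to 0.54. The summed FPKM of the 9 receptors was 109 ± 2.57 in siCTL and between 94.2 ± 0.587 in siCHD4 and 102 ± 1.22 in siCARM1. None of these 9 was called higher in siHDAC2 or siKDM1A, beside 10.6% and 14.2% of all genes. There, 2 and 3 of the 9 were lower (22.2% and 33.3%, beside 9% and 11.5% of all genes). With 9 receptors, each makes up 11.1%.

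FZD2 fell in 4 of the 5 knockdowns. It was at 98.2 and 101 CPM in siCTL, 51 and 49.7 in siCHD4, 74.5 and 68.6 in siCARM1, 77.9 in both siGATAD2A libraries, 80.3 and 83.5 in siHDAC2 and 91.1 and 91.8 in siKDM1A. All 10 knockdown libraries lay below both siCTL libraries. The log2 fold change was -0.98 in siCHD4 (SE 0.055, adjusted p = 5.59e-16), -0.47 in siCARM1 (adjusted p = 1.4e-08), -0.35 in siGATAD2A (adjusted p = 1.53e-06) and -0.28 in siHDAC2 (adjusted p = 0.000112), and in siKDM1A the value of -0.12 was not called. Without siCTL replicate 2 or siHDAC2 replicate 1 the siHDAC2 value of -0.26 fell under the fold minimum.

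FZD9 separated CHD4 from the other NuRD subunits. At 17.9 and 20.3 CPM in siCTL, it rose to 27.8 and 28.2 in siCHD4 (log2 fold change 0.54, SE 0.096, adjusted p = 1.05e-05) and fell to 11.4 and 14.6 in siHDAC2 (-0.54, SE 0.105, adjusted p = 0.000159). It was also lower in siGATAD2A (-0.36) and siKDM1A (-0.38), calls that were lost without siCTL replicate 2 (-0.26, adjusted p = 0.102, and -0.29, 0.0902), the second also without siKDM1A replicate 2 (0.0509). The differences of siHDAC2, siGATAD2A and siKDM1A from siCHD4 were 2.12-fold, 1.87-fold and 1.9-fold, with adjusted p of 5.06e-11, 1.86e-09 and 1.2e-09.

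The other frizzled receptors were called at most 2 times each. FZD1 was lower in siCHD4 (-0.53), FZD3 in siCARM1 (-0.27), FZD4 in siGATAD2A (-0.36) and siKDM1A (-0.42), and FZD6 in siCHD4 (-0.38) and siGATAD2A (-0.53). FZD7 was higher in siCARM1 (0.27) and siCHD4 (0.35), and FZD8 was higher in siGATAD2A (0.37) and lower in siKDM1A (-0.29). FZD5 was not called, with values between -0.19 and 0.17.

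Of 25 pairs of a co-receptor and a knockdown, 11 were called higher (44%) and 1 lower (4%), beside 15.9% and 15.6% of all such pairs over the genes tested. The 11 came from 3 of the 5 genes, LRP6 (4), ROR1 (4) and ROR2 (3), measured against the same siCTL libraries. LRP6, an essential co-receptor of the canonical branch, was at 149 and 145 CPM in siCTL and between 168 and 217 in the 10 knockdown libraries. It rose in siCHD4 (log2 fold change 0.53, SE 0.044, adjusted p = 7.48e-12), siCARM1 (0.42), siHDAC2 (0.29) and siGATAD2A (0.29), and in siKDM1A the value of 0.21 passed the adjusted p and not the fold. The values in siHDAC2 and siGATAD2A fell under the fold minimum, at 0.26, with filterByExpr on every biotype, and that in siHDAC2 also without siHDAC2 replicate 1. LRP5, its close relative and the co-receptor with the highest level per length, was lower in siGATAD2A alone (-0.33, SE 0.043, adjusted p = 1.37e-07), at 292 and 289 CPM against 357 and 375 in siCTL.

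ROR1 and ROR2, tyrosine kinase-like receptors for WNT5A, were both raised by siGATAD2A and siKDM1A and differed in the other knockdowns. ROR1 was at 15.9 and 15.6 CPM in siCTL, 27.1 and 27.7 in siCARM1, 24 and 23.8 in siHDAC2, 22.3 and 19.3 in siGATAD2A, 20.2 and 21.7 in siKDM1A and 16.7 and 18.1 in siCHD4. Its log2 fold change was 0.80 in siCARM1 (SE 0.090, adjusted p = 1.32e-08), 0.60 in siHDAC2 and 0.41 in siGATAD2A and siKDM1A, and 0.15 in siCHD4, which was not called (adjusted p = 0.183). ROR2 was at 6.23 and 8.65 in siCTL, 15.9 and 15.3 in siGATAD2A, 12.6 and 12.5 in siCHD4 and 11.3 and 11.9 in siKDM1A, while siCARM1 and siHDAC2, at 6.6 to 7.96, overlapped siCTL. It rose in siGATAD2A (1.06, SE 0.126, adjusted p = 2.58e-08), siCHD4 (0.74) and siKDM1A (0.63). Between siCARM1 and siCHD4, ROR1 was 1.58-fold higher in the former and ROR2 1.58-fold higher in the latter, with adjusted p of 9.42e-08 and 3.22e-05. RYK, a further receptor of this kind, was not called.

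**Figure D4:**
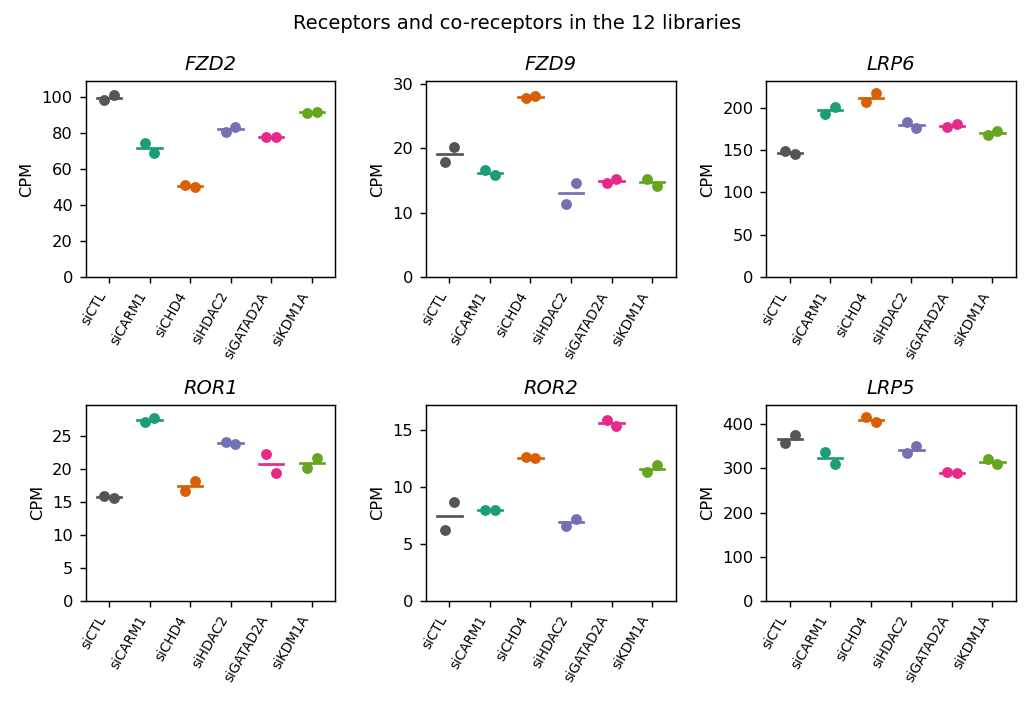
TMM-scaled CPM (linear axis from 0) of 2 frizzled receptors and 4 co-receptors in the 12 libraries, with a point for each library and a line at the mean of each group of 2. FZD2 is lowest in siCHD4 and LRP6 is above siCTL in all 10 knockdown libraries, while ROR1 is highest in siCARM1 and ROR2 in siGATAD2A.

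Among the genes of receptor turnover, LGR4 and LGR5 encode R-spondin receptors, and RNF43 and ZNRF3 are ubiquitin ligases that remove frizzled receptors from the cell surface. LGR5 was at 6.95 and 8.14 CPM in siCTL, 11.3 and 10.7 in siCHD4, 10.1 and 10 in siGATAD2A and 4.48 and 3.17 in siHDAC2. It fell in siHDAC2 (log2 fold change -1.02, SE 0.163, adjusted p = 1.28e-05) and rose in siCHD4 (0.54, SE 0.138, adjusted p = 0.00107), so that siHDAC2 lay 2.93-fold below siCHD4 (adjusted p = 2.25e-10). The call in siGATAD2A (0.41, adjusted p = 0.0151) was lost with counts taken without regard to strand (0.0657) and without siCTL replicate 1 (0.144) or either siGATAD2A library (0.0642 and 0.0527).

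ZNRF3 was higher in siCHD4 (0.30) and lower in siGATAD2A (-0.30), the latter falling under the fold minimum without siGATAD2A replicate 2 (-0.26), and its levels were 105 and 106 CPM in siCTL, 131 and 129 in siCHD4 and 88.3 and 83.5 in siGATAD2A. RNF43 was lower in siCARM1 alone, at 5.52 and 6.54 CPM against 9.19 and 8.65 (log2 fold change -0.57, SE 0.136, adjusted p = 0.000919). Its counts leave out pairs shared with an overlapping gene on the same strand, which covers 68.4% of its exonic bases, as one does 25.3% of those of AXIN2. LGR4, the gene of this group with the highest mean FPKM over the 12 libraries, was lower in siCHD4 (-0.40).

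Few cytoplasmic components were called. Of 35 pairs, 1 was called higher (2.86%, beside 15.9% of all pairs over the genes tested) and 2 lower (5.71%, beside 15.6%), all 3 of them in siCHD4, where AXIN1 was at 0.29, DVL1 at -0.29 and GSK3B at -0.29. CTNNB1, which encodes β-catenin, lay between 617 and 693 CPM in all libraries but those of siCHD4, at 776 and 774, and that difference of 0.21 (SE 0.037, adjusted p = 8.05e-06) stayed under the 1.2-fold minimum. These are levels of mRNA, whereas the pathway acts on β-catenin through the stability of the protein.

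Among the nuclear factors, TCF7 and LEF1, both DNA-binding partners of β-catenin, parted in siCHD4. TCF7 was at 16.2 and 15 CPM in siCTL and 24.7 and 23.8 in siCHD4 (log2 fold change 0.64, SE 0.093, adjusted p = 5.37e-07), and in the other knockdowns it was not called, at 14.7 to 17.8. LEF1 fell from 35.3 and 33.4 to 24.2 and 24 in siCHD4 (-0.51, SE 0.078, adjusted p = 1.28e-06) and rose to 47 and 45.5 in siGATAD2A (0.43, SE 0.072, adjusted p = 9.15e-06), a 1.92-fold difference between these knockdowns (adjusted p = 2.5e-12). TCF7L2 was higher in siGATAD2A (0.38) and TCF7L1 in siHDAC2 (0.54) and siKDM1A (0.55). Of the co-repressors, TLE1 was lower in siKDM1A (-0.41) and TLE3 in siCARM1 (-0.32), and in siCTL they were level at 21.2 and 21 FPKM.

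The largest fitted rise and the largest fitted fall of the 44 were those of the feedback genes DKK1 and SP5, both in siCHD4. DKK1, a secreted inhibitor that binds LRP5 and LRP6, was at 2.3 and 2.39 CPM in siCTL, 7.47 and 6.87 in siCARM1, 18.8 and 18 in siCHD4, 3.2 and 3.58 in siHDAC2, 4.35 and 4.12 in siGATAD2A and 3.84 and 5.03 in siKDM1A. Every knockdown library lay above both siCTL libraries, those of siCHD4 more than 2 times above all others. The change was 7.81-fold in siCHD4 (log2 2.96, SE 0.156, adjusted p = 1.23e-16), 3.06-fold in siCARM1 (adjusted p = 8.62e-09), 1.89-fold in siKDM1A (adjusted p = 0.00026), 1.8-fold in siGATAD2A (adjusted p = 0.00047) and 1.45-fold in siHDAC2 (adjusted p = 0.0377). Between knockdowns, siCHD4 exceeded siCARM1 by 2.55-fold (adjusted p = 6.93e-11) and siCARM1 exceeded siHDAC2 by 2.11-fold (adjusted p = 3.86e-06), whereas siHDAC2, siGATAD2A and siKDM1A did not differ beyond the test, with log2 differences of 0.31 (SE 0.174), 0.38 (SE 0.173) and 0.07 (SE 0.166). The siHDAC2 call was not kept with DESeq2 (adjusted p = 0.0791), with only the groups compared in the fit (0.0692), with counts taken without regard to strand (0.112), with filterByExpr on every biotype (0.0505), without siCTL replicate 1 (0.13) or 2 (0.118), or without siHDAC2 replicate 1 (0.0548) or 2 (0.21), so a rise in all 5 knockdowns rests on this weakest value.

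SP5, a zinc finger transcription factor and direct target of β-catenin with 3 TCF/LEF matches in the promoter printed above, went down. It was at 4.16 and 3.77 CPM in siCTL, 3.12 and 2.81 in siCARM1, 1.5 and 1.32 in siCHD4, 1.39 and 1.68 in siHDAC2, 1.34 and 1.64 in siGATAD2A and 1.74 and 2.05 in siKDM1A. All 10 knockdown libraries lay below both siCTL libraries, and siCARM1 lay between these and the NuRD knockdowns. The fall was 2.8-fold in siCHD4 (log2 fold change -1.48, SE 0.235, adjusted p = 2.05e-06), 2.66-fold in siGATAD2A, 2.54-fold in siHDAC2 and 2.08-fold in siKDM1A, whereas the value of -0.41 in siCARM1 was not called (SE 0.203, adjusted p = 0.102). Each of the 4 NuRD knockdowns lay below siCARM1, by 2.11-fold in siCHD4 (adjusted p = 0.000248), 2-fold in siGATAD2A, 1.92-fold in siHDAC2 and 1.57-fold in siKDM1A (adjusted p = 0.0244), and no pair of these 4 differed by the test. SP5 lies on chromosome 2 from 171571847 to 171574588 and DKK1 on chromosome 10 from 54074041 to 54077802 (GRCh37, both on the plus strand).

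AXIN2, often taken as the most general readout of canonical signalling, was called higher in no knockdown. Its level was 22 and 21 CPM in siCTL, 14.9 and 15.4 in siCARM1, 15.9 and 16.5 in siCHD4, 15.5 and 15.9 in siGATAD2A, 19.1 and 20.8 in siHDAC2 and 22.1 and 20.6 in siKDM1A. The libraries of siCARM1, siCHD4 and siGATAD2A lay below all others, with log2 fold changes of -0.51 (SE 0.091, adjusted p = 3.13e-05), -0.41 and -0.45. siHDAC2 (-0.10) and siKDM1A (-0.01) were not called, and siKDM1A exceeded siCARM1, siCHD4 and siGATAD2A by 1.41-fold, 1.32-fold and 1.36-fold, with adjusted p of 5.2e-05, 0.000251 and 0.000124.

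NKD1, an antagonist that binds Dishevelled, fell in siCARM1 (-0.63, SE 0.136, adjusted p = 0.000337) to 9.6 and 6.97 CPM and rose in siCHD4 (0.60, SE 0.122, adjusted p = 8.24e-05) to 17.9 and 21.2, from 12.8 and 13.1 in siCTL. The knockdowns differed by 2.33-fold (adjusted p = 8.14e-10). SFRP1, a secreted frizzled-related antagonist, was lower in siCHD4 (-0.72) and siGATAD2A (-0.35), at 20.1 and 22 and at 27 and 27.7 CPM against 35.8 and 33.7 in siCTL.

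Set side by side, the 9 genes commonly read as canonical targets (AXIN2, NKD1, DKK1, SP5, LGR5, RNF43, ZNRF3, TCF7 and LEF1) were called in both directions in every knockdown. For siHDAC2 this rests on the DKK1 call, which was lost under several alternatives. In siCHD4, where WNT7B was highest, DKK1, NKD1, LGR5, ZNRF3 and TCF7 were higher and SP5, AXIN2 and LEF1 lower. In siKDM1A only DKK1 was higher and only SP5 lower (11.1% each, beside 14.2% and 11.5% of all genes), shares near the background. In siCARM1, 1 was higher and 3 lower (11.1% and 33.3%, beside 14.9% and 14.5% of all genes), in siHDAC2 1 higher and 2 lower (11.1% and 22.2%, beside 10.6% and 9%), and in siGATAD2A 3 higher and 3 lower (33.3% each, beside 15.7% and 18.2%). With 9 genes, each makes up 11.1%. The 5 higher and 3 lower in siCHD4 were 55.6% and 33.3%, beside 24% and 24.9% of all genes. Their median log2 fold change ran from -0.14 in siHDAC2 to 0.30 in siCHD4. Of 8 further targets outside the 48 listed genes, 3 were higher and 3 lower in siKDM1A (37.5% each). The counts were 3 and 2 in siCHD4, 1 and 3 in siCARM1, 2 and 4 in siHDAC2 and 0 and 3 in siGATAD2A. Each of the 8 makes up 12.5%, and the shares of all genes are those just given. These 8 include APCDD1, which passed the filter only through knockdown groups in which it was high.

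**Figure D5:**
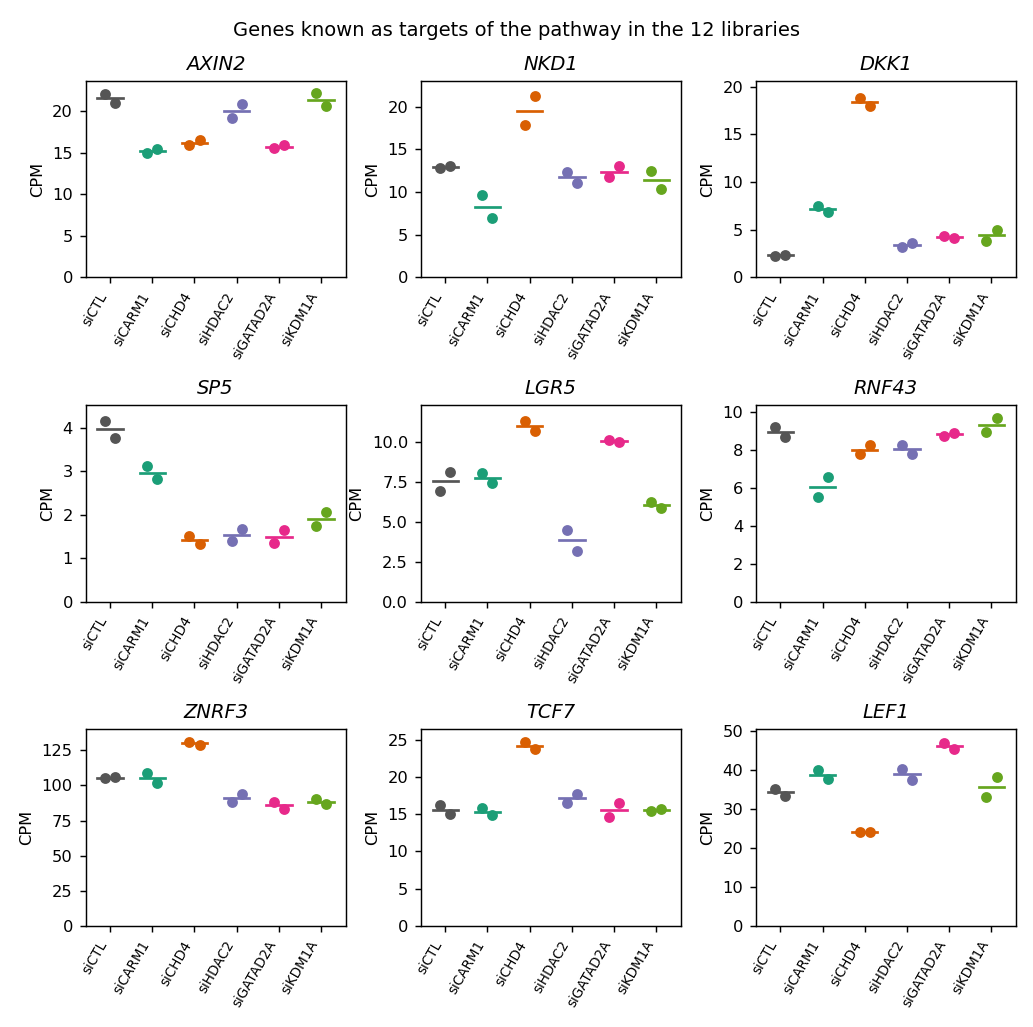
TMM-scaled CPM (linear axis from 0) of 9 genes known as targets of canonical WNT signalling in the 12 libraries, with a point for each library and a line at the mean of each group of 2. DKK1 is above siCTL and SP5 below it in all 10 knockdown libraries, and LGR5 and LEF1 lie on different sides of siCTL in different knockdowns.

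Differences between the knockdowns themselves do not use siCTL and so do not share the comparison that chose WNT7B. By a test with 4 degrees of freedom over the 5 knockdown means, 41 of the 44 genes differed (93.2%), beside 88.1% of all genes tested. The 41 include WNT3A and WNT6, which passed the filter only through knockdown groups in which they were high. The 3 genes that did not differ by the test were RYK (adjusted p = 0.0687), DVL2 (0.254) and APC (0.0962). The span between the lowest and the highest knockdown was widest for DKK1 (2.43 on the log2 scale, from siHDAC2 to siCHD4), WNT6 (2.32, from siCARM1 to siKDM1A) and WNT9A (1.84, from siGATAD2A to siKDM1A). It was 0.09 for DVL2, 0.14 for APC and 0.32 for CTNNB1.

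Of 79 further genes of WNT secretion, reception, signalling and planar polarity, 60 were tested. The 4 R-spondins RSPO1, RSPO2, RSPO3 and RSPO4, ligands of LGR4 and LGR5, were under the filter, as were WNT1, WNT2 and WNT8A. In siCHD4, 13 of the 60 were higher and 15 lower, and the counts were also 13 and 15 in siGATAD2A. They were 10 and 9 in siCARM1, 8 and 9 in siHDAC2 and 11 and 9 in siKDM1A. The genes called higher include WNT16, FZD10, SOST and APCDD1, which passed the filter only through knockdown groups in which they were high. That favours such calls, and counts without these genes were not made. In siCHD4 and in siGATAD2A, 21.7% were higher and 25% lower. Of all genes, 24% and 24.9% were in siCHD4, and 15.7% and 18.2% in siGATAD2A. In siCARM1 the shares were 16.7% and 15%, beside 14.9% and 14.5% of all genes. They were 13.3% and 15% in siHDAC2 (10.6% and 9% of all genes) and 18.3% and 15% in siKDM1A (14.2% and 11.5%). These calls were not followed through the alternative settings gene by gene.

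A few of them, APC2, TNFRSF19 and GPC6, moved one way throughout. Over all genes tested, 1.7% were lower and 2.28% higher in all 5 knockdowns, so such genes are not particular to the pathway. APC2, a relative of APC, was at 17.3 and 12.8 CPM in siCTL and between 4.96 and 9.41 in the knockdowns. It was lower in all 5, with log2 fold changes from -1.53 (SE 0.142, adjusted p = 3.1e-10) in siCARM1 to -0.70 in siCHD4. TNFRSF19, a receptor induced by β-catenin, was at 19.3 and 18.4 CPM in siCTL and was lower in all 5, most in siKDM1A (-1.03, SE 0.110), at 8.91 and 9.47. GPC6, a glypican, was higher in all 5, by 0.28 to 0.40.

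Others changed by knockdown. MYC, a growth-promoting transcription factor and a target in colon cells, was higher in siCHD4 (0.99), siCARM1 (0.83), siKDM1A (0.56) and siHDAC2 (0.43), and at 0.04 in siGATAD2A was not called. CCND1, which encodes cyclin D1, was lower in siKDM1A (-0.69), siGATAD2A (-0.42) and siHDAC2 (-0.35). PORCN, the acyltransferase that lipidates WNT ligands, was lower in all but siGATAD2A, by -0.51 to -0.27, and BCL9L, a cofactor of β-catenin, was lower in siCHD4 (-0.65), siCARM1 (-0.40) and siGATAD2A (-0.39).

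GPC3, another glypican, was lower in siCHD4 (-0.99), siCARM1 (-0.56), siGATAD2A (-0.49) and siKDM1A (-0.36) and higher in siHDAC2 (0.29). PRICKLE1, a planar polarity gene, fell in siCHD4 (-0.80), siHDAC2 (-0.57) and siKDM1A (-0.43) and rose in siGATAD2A (0.57), at 70.5 and 67 CPM against 45.8 and 46.7 in siCTL. TBXT, a T-box target of the pathway, was lower in siCARM1 and siGATAD2A (both -1.10). Besides MYC and GPC6, higher in at least 3 were also CSNK1G1 (0.69 in siCHD4), AMER1 (0.52 in siCHD4), TNIK (0.53 in siGATAD2A) and TLE2 (0.69 in siKDM1A). Over all genes tested, 10.8% were higher and 9.59% lower in at least 3 knockdowns.

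FZD10, WNT16 and SOST, an LRP antagonist, were under the filter in siCTL and passed through knockdown groups, so their values are given as a description with no test. FZD10 had 7 and 8 counts in siCTL and 64 and 72 in siCHD4 (log2 fold change 2.96, SE 0.377) and 35 and 33 in siKDM1A (1.97). SOST had 6 and 3 counts in siCTL, 27 and 31 in siCHD4 (2.45), 29 and 12 in siGATAD2A (1.92) and 16 and 18 in siKDM1A (1.70). WNT16 had log2 fold changes of 1.08 in siGATAD2A and -1.31 in siCHD4.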

How the data were processed

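RNA-seq of 12 HEK293T libraries, 2 for each of 6 siRNA groups, was analysed. The authors deposited unnormalized read-pair counts by Ensembl gene, 1 file a library, in the layout of STAR's gene counts. The submitters' processing notes name CASAVA 1.4, STAR 2.7.10 and hg19, whereas the methods name TopHat and HOMER. Such counts leave out pairs with several locations and pairs overlapping more than 1 gene, so levels of overlapping genes are understated. The kit is directional, and the reverse-strand column was used; the forward strand held 7.93% to 8.4% as many counts. Identifiers were matched to GENCODE release 44 on GRCh37.

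CPM, FPKM (by union exonic length and the library's total count on genes) and fold changes were computed here. Coding genes with FPKM above 0.5 in at least 1 group mean were tested in edgeR 4.0.16 (R 4.3.3) with TMM and glmQLFit over 6 group means, which was tested on simulated data first. Standard errors are the log2 fold change divided by the square root of F. DESeq2 1.42.0, other scaling, filters, strands and fits, a replicate block and each library left out in turn were the alternatives. The biological coefficient of variation was 3.47%. Replicate libraries differed by more than sampling noise (chi-square per degree of freedom 1.77 to 4.96).

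The members, gene lists and tests were chosen with earlier results of these data known. Genes are named if they are WNT7B or a canonical target, were called in 1 direction in at least 3 knockdowns or by at least 2-fold in 1, or have the highest mean FPKM of their role over the 12 libraries; other members appear where every member of a role is accounted for. PECAM1, a marker listed for endothelial cells, had no match and was left out.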

Additional observations from a re-analysis of the deposited data

How the results depend on the processing

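The number of the 44 genes called stayed within 1.5 times that given above under most alternatives, and no named call changed direction. Without the 1.2-fold minimum, the genes lower became 11 in siCARM1 (from 7), 11 in siHDAC2 (from 6), 17 in siGATAD2A (from 10) and 15 in siKDM1A (from 7), since the minimum only removes calls. The genes higher in siHDAC2 were 5, and 3 with DESeq2 and 3 with filterByExpr on every biotype. Leaving out single libraries gave 2 to 5, with 3 without siCTL replicate 1, 3 without siCTL replicate 2 and 2 without siHDAC2 replicate 1. With a replicate block the counts of genes higher and lower were 5 and 7 in siCARM1, 15 and 12 in siCHD4, 5 and 6 in siHDAC2, 10 and 10 in siGATAD2A and 7 and 7 in siKDM1A, as without it, and 41 differed among knockdowns. All 64 named calls remained with the block. Deviations of same-numbered libraries correlated over 0.1 in 1 of 15 pairs of groups (-0.142 to 0.136). Whether same-numbered libraries shared a culture or a batch was not tested. Of these 64 calls, 51 held in every setting and 13 were lost in at least 1, each named above with its value; 6 were lost without siCTL replicate 1 and 7 without siCTL replicate 2. The fold changes of WNT7B lay between 3.92 and 4.06 on the log2 scale in siCHD4 and between 1.43 and 1.60 in siHDAC2. With 2 libraries a group, changes under 1.2-fold and genes with fewer than about 30 counts a library, such as WNT6, WNT3A and SOST, are the least certain.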
